A study of Mus musculus with 9 samples.

Results

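The epithelial oxidant enzyme genes described here are Nos2, which encodes inducible nitric oxide synthase, its substrate competitor Arg2, the dual oxidase gene Duox2 with its maturation factor Duoxa2, and the NADPH oxidase gene Nox1 with its partners Noxo1, Noxa1 and Cyba. They were taken from the deposited expression table by exact gene symbol, and all 8 members were present among its 54146 genes. RNA-seq had been performed on normal-appearing colonic mucosa, with RNA extracted from crypts, of 9 C57BL/6J mice at 15 wk of age. The comparison asked which genes in that mucosa differ when epimutation of the tumor suppressor p16 is added to Apc mutation. The control group comprised 5 ApcMin/+ mice (2 females and 3 males), which carry a germline mutation in 1 allele of the tumor suppressor Apc. The second group comprised 4 ApcMin/+; p16cis/cis mice (3 females and 1 male), which carry the same Apc mutation and, on both p16 alleles, a knock-in cis-element that attracts DNA methylation to the p16 promoter. The Apc mutation is thus shared by both groups, and the knock-in is germline rather than restricted to the colon.

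Inducible nitric oxide synthase converts arginine into citrulline and nitric oxide, and it is switched on by inflammatory cytokines in epithelial cells and macrophages. Arginase consumes the same arginine to form ornithine. In the colon, the NADPH oxidases NOX1 and DUOX2 are the main epithelial producers of superoxide and hydrogen peroxide at the mucosal surface, and both are membrane enzymes that need partner proteins to leave the endoplasmic reticulum or to become active.

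Of the 8 members, 1 rose in ApcMin/+; p16cis/cis mucosa: Cyba, encoding the p22phox subunit that stabilizes NOX1 in the membrane, was 1.76-fold higher. None fell at an adjusted p under 0.05 by limma, edgeR or DESeq2 (limma with Benjamini-Hochberg adjustment over all 14410 genes tested), and Arg2 lay just outside that threshold with a lower mean in the ApcMin/+; p16cis/cis mice. Among all genes tested, 8.14% rose and 8.75% fell by the limma rule, so 1 of 8 higher is near the background, and 1 member was lower at an unadjusted p under 0.05. No member passed the stricter rule that also asks for a fold change above 2, against 3.48% of all genes. Cyba was also the only member whose genotypes did not overlap, with all ApcMin/+; p16cis/cis mice higher, and no member was without overlap in the lower direction; among all genes tested, these shares were 7.24% and 8.95%. The median log2 difference was 0.12 over the 8 members and -0.00 over all genes tested. In these bulk samples, a difference in the number of cells of a type cannot be told apart from a difference in RNA per cell.

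Library features moved with genotype and stand beside every result. Reads on genes ranged from 15745098 to 17885918 in ApcMin/+ mice and from 13523500 to 14900228 in ApcMin/+; p16cis/cis mice, and the share of mitochondrially encoded transcripts from 8.74% to 15.6% and from 19.3% to 29.8%. Neither range overlapped between the genotypes. Short and GC-rich transcripts also tended to be higher in ApcMin/+; p16cis/cis mice: the median log2 difference was 0.21 in the shortest quintile of the genes tested and -0.11 in the longest, and 0.19 in the quintile richest in GC against -0.23 in the poorest. Cdkn2a, the gene of p16, was listed at 0 in all 9 mice and therefore offers no check of the genotype labels. The epithelial marker list was abundant in all libraries, with summed levels of 185911 to 270709 in ApcMin/+ mice and 184062 to 249343 in ApcMin/+; p16cis/cis mice. Of its 7 genes, limma called 0, and DESeq2 called 1 higher and 2 lower. Epcam was lower without overlap (27841 to 38616 against 24444 to 26913, log2 difference -0.38, adjusted p = 0.0938 by limma). Krt18 had the opposite sign (log2 difference 0.39, adjusted p = 0.0876 by limma).

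**Figure D1:**
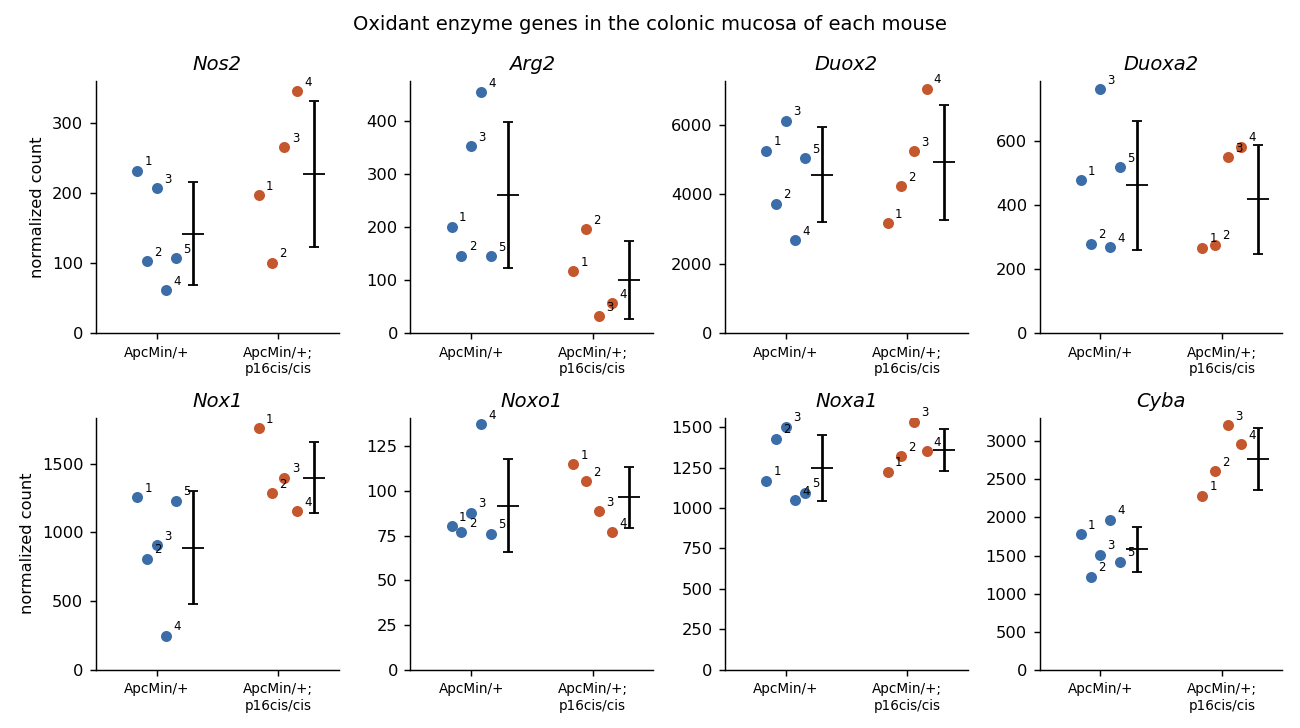
Normalized count of each member in each mouse, with 1 panel per gene and a linear axis from 0; numbered points are mice by replicate, and the bars give the mean ± SD of each genotype (n = 5 and 4). For Cyba the 4 mice with p16 epimutation (2284 to 3210) lie above all 5 controls (1221 to 1969), whereas the genotypes overlap for the other genes.

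Nos2 (ENSMUSG00000020826.8, chr11:78920787-78960254, plus strand, GRCm38) was a low-abundance gene, resting on 48 to 221 reads per mouse. Its normalized counts were 232, 103, 207, 61.0 and 107 in ApcMin/+ replicates 1 to 5, and 197, 100.5, 266 and 346 in ApcMin/+; p16cis/cis replicates 1 to 4. The 2 highest values belonged to ApcMin/+; p16cis/cis mice, but the genotypes overlapped, and 1 ApcMin/+; p16cis/cis mouse lay below 4 of the 5 ApcMin/+ mice. The mean was 142 ± 73.6 (SD, n = 5) in the controls, against 227 ± 104 (SD, n = 4) with p16 epimutation. The log2 difference on the log2(value + 1) scale was 0.71 (SE 0.42, 95% interval -0.20 to 1.61), with an adjusted p of 0.262 by limma. The exact two-sided permutation test of the 9 mice gave p = 0.222. The genotypes were thus not separated for Nos2, and the interval reaches from a slightly lower level to a log2 gain about as large as the Arg2 loss described next.

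Arg2 (ENSMUSG00000021125.6, chr12:79130777-79156301, plus strand), encoding the mitochondrial form of arginase, showed the opposite order of means. Its normalized counts were 201, 145, 352, 454 and 145 in ApcMin/+ mice and 116, 196, 31.6 and 56.4 in ApcMin/+; p16cis/cis mice, based on 21 to 361 reads. Of the ApcMin/+; p16cis/cis mice, 3 lay below every ApcMin/+ mouse, whereas replicate 2 lay within the ApcMin/+ range. The mean was 259.5 ± 138 (SD, n = 5) against 100.1 ± 73.3 (SD, n = 4). The log2 difference was -1.53 (SE 0.50, 95% interval -2.60 to -0.45), which missed the threshold at an adjusted p of 0.0535 by limma, and the exact permutation p was 0.0635. The call depended on replicate 2 of the ApcMin/+; p16cis/cis group: without this mouse the log2 difference was -1.95 with an adjusted p of 0.0322 by limma. Arg2 shares 285 bp of exon with Vti1b on the opposite strand, whose normalized counts were 958 to 1405, and whether reads were counted by strand is not stated.

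Duox2 (ENSMUSG00000068452.7, chr2:122279247-122298449, minus strand) and Duoxa2 (ENSMUSG00000027225.7, chr2:122298900-122302885, plus strand) lie head to head on chromosome 2, with 450 bp between their annotated ends. DUOX2 releases hydrogen peroxide into the gut lumen, and DUOXA2 is required for it to reach the cell surface. The RefSeq promoter table (GRCm38.p6) reaches back from the Duoxa2 start to the longest RefSeq model of Duox2, and these 159 bases are shown because they separate the starts of both genes there. They lie at chr2:122298741-122298899 and are written 5′ to 3′ on the Duoxa2 strand, with capitals marking a TATA box (TATAAA) and GC boxes (GGGCGG) found on either strand.
Duoxa2 upstream: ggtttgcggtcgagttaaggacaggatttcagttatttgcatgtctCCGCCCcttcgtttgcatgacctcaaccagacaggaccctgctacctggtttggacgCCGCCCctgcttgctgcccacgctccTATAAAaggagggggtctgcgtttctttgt
The TATA letters stand 30 to 25 bases before the Duoxa2 start. Such letters occurred within the 250 upstream bases of 12.4% of all 32851 promoter windows, and the GC box letters in 32.7%. A match describes these letters only.

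Duox2 was the member with the highest normalized counts, at 5262, 3735, 6127, 2676 and 5042 in ApcMin/+ mice and 3167, 4241.5, 5244 and 7051 in ApcMin/+; p16cis/cis mice. The genotypes covered nearly the same range, and the means were 4568 ± 1361 (SD, n = 5) and 4926 ± 1651 (SD, n = 4). The log2 difference was 0.11 (SE 0.26, 95% interval -0.46 to 0.67), with an adjusted p of 0.811 by limma and an exact permutation p of 0.794. Duoxa2 had normalized counts of 478, 279.5, 763, 269 and 519.9 in ApcMin/+ mice and 266, 276, 550.0 and 583 in ApcMin/+; p16cis/cis mice. Again the lowest values of the 2 genotypes were nearly equal, and the means were 462 ± 203 (SD, n = 5) and 419 ± 171 (SD, n = 4). The log2 difference was -0.13 (SE 0.33, 95% interval -0.85 to 0.60), with an adjusted p of 0.828 by limma and an exact permutation p of 0.841. The upper ends of both intervals lie below the log2 difference of 0.81 found for Cyba. Duoxa2 shares 682 bp of exon with Duoxa1 on the opposite strand, which was itself low at 10.5 to 39.2.

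Although neither gene differed by genotype, Duox2 and Duoxa2 varied together from mouse to mouse. Across the 9 mice, deviations of their log2 values from the genotype means gave Pearson's r = 0.91 (exact permutation within genotype, two-sided p = 0.000694, adjusted p = 0.0194 over the 28 pairs of members) and Spearman's rho = 0.90 (exact permutation p = 0.00139, adjusted p = 0.0389). Without the 2 mice farthest from the median, ApcMin/+ replicate 4 and ApcMin/+; p16cis/cis replicate 1, r was 0.92. Leaving out each mouse in turn gave r between 0.90 and 0.93. It was the only one of the 28 pairs to pass at an adjusted p under 0.05, while 5 pairs had an unadjusted p under 0.05. Over all 14410 genes tested, 4 other genes had a higher r with Duox2 than Duoxa2 did, and 4 had a higher r with Duoxa2 than Duox2 did.

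**Figure D2:**
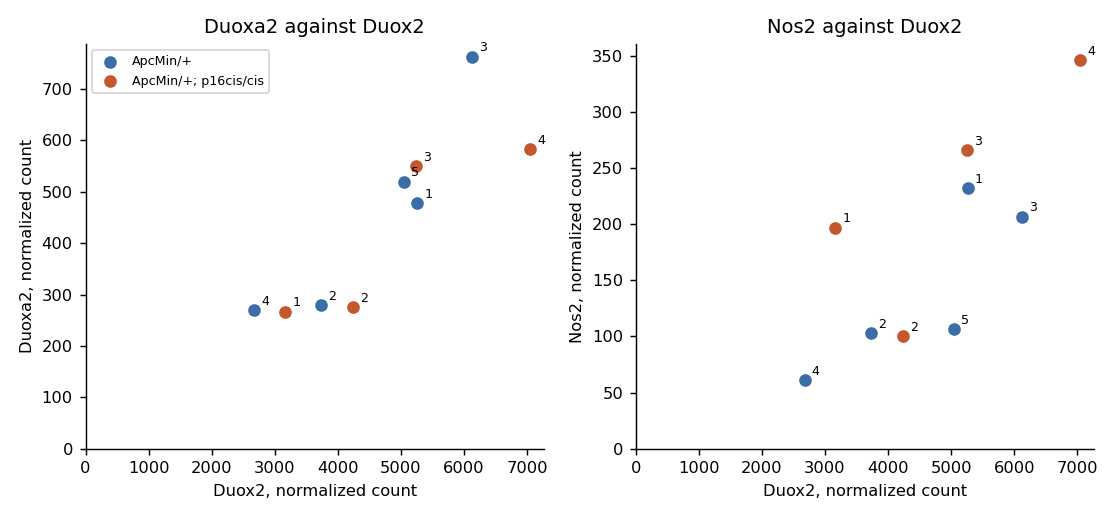
Normalized counts of Duoxa2 (left) and Nos2 (right) on the vertical axes against those of Duox2 on the horizontal axes; each numbered point is 1 mouse, colored by genotype. Mice with low Duox2 (2676 to 4241.5) have Duoxa2 of 266 to 279.5 and those with higher Duox2 have 478 to 763, while Nos2 follows Duox2 more loosely.

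Nos2 followed the Duox2 pair in sign, without passing the adjustment. Its r was 0.77 with Duox2 (exact permutation p = 0.0292, adjusted p = 0.175) and 0.79 with Duoxa2 (exact permutation p = 0.0313, adjusted p = 0.175). The corresponding rho with Duox2 was 0.80 (exact permutation p = 0.0253, adjusted p = 0.355), and r was 0.74 without the 2 mice farthest from the Nos2 median. Noxo1 went the other way from Duox2, with r = -0.81 (exact permutation p = 0.0170, adjusted p = 0.165), but this rested on ApcMin/+ replicate 4 and ApcMin/+; p16cis/cis replicate 1, without which r was -0.39. The remaining pair under 0.05 before adjustment was Arg2 with Noxo1 (r = 0.73, exact permutation p = 0.0177, adjusted p = 0.165). The 5 genes whose deviations were most like those of Nos2 over the 9 mice were Phlda2 (r = 0.93), Prmt2 (r = 0.93), Slc25a25 (r = 0.92), Myc (r = 0.92) and Syndig1l (r = 0.91), given as a description of genes that share these libraries.

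Nox1 (ENSMUSG00000031257.14, chrX:134086421-134221956, minus strand) encodes the catalytic subunit of the colonic superoxide-producing oxidase. Its normalized counts were 1253, 809, 905, 247 and 1229 in ApcMin/+ mice and 1758, 1282, 1396 and 1155 in ApcMin/+; p16cis/cis mice. All but 1 of the ApcMin/+; p16cis/cis mice were above every ApcMin/+ mouse, and ApcMin/+ replicate 4 was far below the rest. The mean was 889 ± 409 (SD, n = 5) against 1398 ± 259.5 (SD, n = 4). The log2 difference was 0.83 (SE 0.39, 95% interval -0.01 to 1.68), with an adjusted p of 0.156 by limma and an exact permutation p of 0.0635. Without ApcMin/+ replicate 4 the log2 difference was 0.42 with an adjusted p of 0.0828 by limma.

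The sexes are unevenly spread over the genotypes, and Nox1 is therefore also given by sex. In females, the ApcMin/+ mice had 1229 and 1253 and the ApcMin/+; p16cis/cis mice 1155 to 1396, a log2 difference of 0.04. In males, the 3 ApcMin/+ mice had 247 to 905, and the only ApcMin/+; p16cis/cis male had 1758, a log2 difference of 1.63. The difference between the sexes was 1.60 on the log2 scale (SE 0.71), with an interaction p of 0.0484 by limma before adjustment and an adjusted p of 0.722 over all genes tested, so it did not pass. Of the 14410 genes, 0 passed this interaction by limma and 979 had an unadjusted p under 0.05, and the male arm rests on 1 ApcMin/+; p16cis/cis mouse.

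Noxo1, the organizer, and Noxa1, the activator, bring NOX1 into its working complex. Noxo1 (ENSMUSG00000019320.13, chr17:24696234-24700529, plus strand) had normalized counts of 80.3, 77.0, 87.8, 137 and 76.1 in ApcMin/+ mice and 115, 105, 88.7 and 76.8 in ApcMin/+; p16cis/cis mice, based on 49 to 108 reads. The highest value of all was that of ApcMin/+ replicate 4, the mouse with the lowest Nox1. The log2 difference was 0.09 (SE 0.22, 95% interval -0.39 to 0.57), with an adjusted p of 0.807 by limma and an exact permutation p of 0.683. Of its 3013 bp of exon, 2122 bp are shared with Tbl3 on the opposite strand, whose normalized counts were 467 to 652, so part of the Noxo1 signal cannot be assigned to either gene if strand was not used. Noxa1 (ENSMUSG00000036805.13, chr2:25085667-25095149, minus strand) was the steadiest member, at 1168, 1430.1, 1502, 1047 and 1094 in ApcMin/+ mice and 1226, 1322, 1534 and 1350.4 in ApcMin/+; p16cis/cis mice. The means were 1248 ± 205 (SD, n = 5) and 1358 ± 129 (SD, n = 4). Its log2 difference was 0.13 (SE 0.13, 95% interval -0.15 to 0.41), with an adjusted p of 0.508 by limma and an exact permutation p of 0.349.

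Cyba (ENSMUSG00000006519.11, chr8:122424776-122432930, minus strand) was the member that differed. Its normalized counts were 1783, 1221, 1512, 1969 and 1421 in ApcMin/+ mice and 2284, 2605, 3210 and 2964 in ApcMin/+; p16cis/cis mice. No value was shared between the ranges, the lowest mouse with p16 epimutation being above the highest control, and the means were 1581 ± 296 (SD, n = 5) and 2766 ± 406 (SD, n = 4). The log2 difference was 0.81 (SE 0.15, 95% interval 0.49 to 1.14), with an adjusted p of 0.00621 by limma. The exact permutation p was 0.0159, the smallest this design allows. With any 1 mouse left out, the log2 difference stayed between 0.73 and 0.90 and passed at an adjusted p of at most 0.0254 by limma, and in females alone it was 0.87 with an adjusted p of 0.0209 by limma.

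The Cyba transcript is short, at 744 bp for its longest form, and GC-rich, at 59.3%, which places it in the shortest and the most GC-rich quintiles of the genes tested. After correction of each library for GC content and transcript length, the Cyba log2 difference was 0.31 (95% interval 0.08 to 0.54) and missed the threshold at an adjusted p of 0.0710 by limma. With the mitochondrial share as a covariate it was 0.61 with an adjusted p of 0.848, a fit in which 0 genes passed.

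The upstream sequences of Cyba and Nox1 are shown side by side because these partners, which form 1 enzyme, have promoters of different base composition. The 250 bases before the Cyba start lie at chr8:122432941-122433190 and those before the Nox1 start at chrX:134111855-134112104, each written 5′ to 3′ on the gene's own minus strand from the RefSeq table (GRCm38.p6), with capitals marking the same TATA and GC box letters as above. The Nox1 start is that of the RefSeq promoter table. Of 5 GENCODE transcripts of Nox1, 3 start at or after this position and 2 start further upstream, so the window lies inside the full span given for the gene.
Cyba upstream: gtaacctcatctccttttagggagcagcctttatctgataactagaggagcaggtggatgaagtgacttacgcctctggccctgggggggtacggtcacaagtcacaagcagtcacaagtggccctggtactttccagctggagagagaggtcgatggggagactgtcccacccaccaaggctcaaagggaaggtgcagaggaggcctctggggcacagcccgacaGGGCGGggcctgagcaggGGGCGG
Nox1 upstream: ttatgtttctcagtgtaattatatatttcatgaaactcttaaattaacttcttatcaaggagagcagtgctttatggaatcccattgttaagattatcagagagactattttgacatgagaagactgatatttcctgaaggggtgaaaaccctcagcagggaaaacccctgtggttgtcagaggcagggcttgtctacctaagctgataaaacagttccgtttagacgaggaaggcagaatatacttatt
The Cyba stretch holds 60.0% GC and 2 GC boxes next to the start, whereas the Nox1 stretch holds 38.0% GC and neither motif. Letters of an intestinal Cdx site (TTTATG, either strand) stand 180 to 175 bases before the Nox1 start and occurred in 10.8% of all windows. The letters of an interferon-gamma-activated site (TTCNNNGAA) and of the core of an interferon-stimulated response element were found in 0 of the 6 members with a window, on either strand, against 7.02% and 2.98% of all windows. Nos2 and Arg2 had no window.

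**Figure D3:**
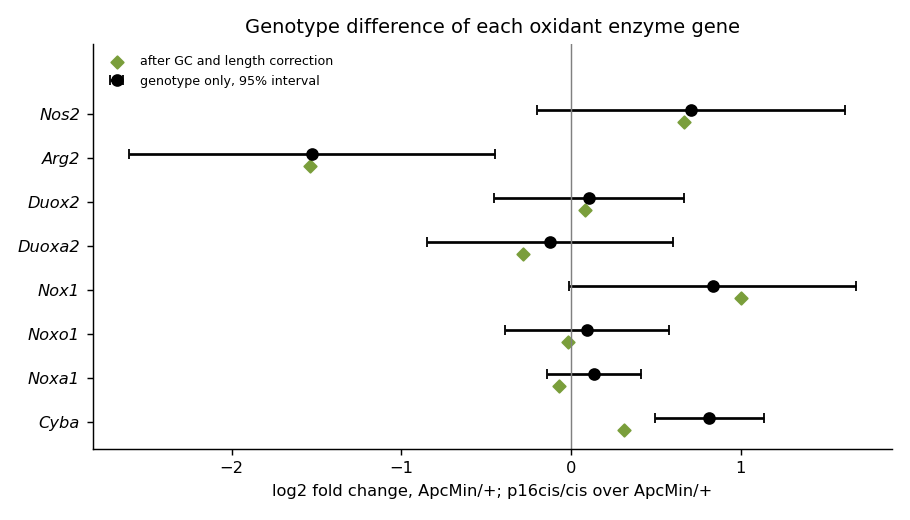
Log2 difference between ApcMin/+; p16cis/cis and ApcMin/+ mice on the log2(value + 1) scale for each member, on the horizontal axis; black points are estimates with 95% intervals and green diamonds the estimates after the GC and length correction. The intervals of Cyba (0.49 to 1.14) and Arg2 (-2.60 to -0.45) do not reach 0, Arg2 did not pass the adjustment, and the Cyba estimate falls to 0.31 after the correction.

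Levels could be set against each other after division by exon length. In mean normalized counts per kb of exon over the 9 mice, the order was Cyba (2029), Noxa1 (802), Duox2 (698), Nox1 (337), Duoxa2 (278), Arg2 (132), Nos2 (40.8) and Noxo1 (31.1). Cyba was above Noxa1 in 9 of 9 mice, Duox2 above Nox1 in 8 of 9 and Duoxa2 above Arg2 in 8 of 9. Other neighbours were not separated in every mouse: Noxa1 was above Duox2 in 6 of 9, Nox1 above Duoxa2 in 6 of 9, Arg2 above Nos2 in 7 of 9 and Nos2 above Noxo1 in 5 of 9. Within the NOX1 complex, therefore, the organizer was the least abundant transcript on this scale and p22phox, which also serves other NADPH oxidases, the most abundant.

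**Figure D4:**
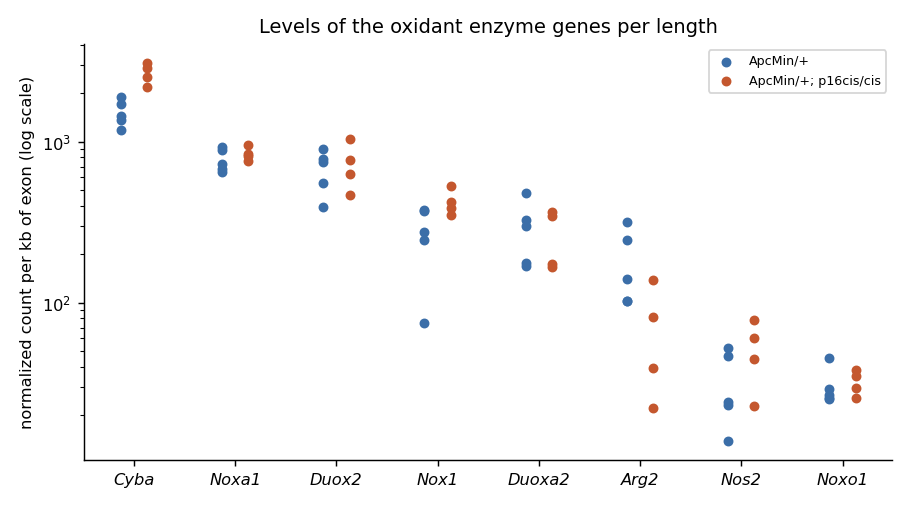
Normalized counts per kb of exon for the 8 members on a logarithmic axis, ordered by the mean over 9 mice; each point is 1 mouse, colored by genotype. Cyba is highest (mean 2029) and Noxo1 lowest (mean 31.1).

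The other NADPH oxidase genes gave no call by limma. Of the 7 tested, 0 rose and 0 fell, 1 had an unadjusted p under 0.05, and the median log2 difference was -0.22. Rac1, the small GTPase that activates NOX1 and the most abundant gene of the list, had 6995 ± 1117 (SD, n = 5) against 6382 ± 1192 (SD, n = 4), a log2 difference of -0.14 with an adjusted p of 0.555 by limma. Cybb, the oxidase of phagocytes, which also uses p22phox, had 47.7 ± 36.4 (SD, n = 5) against 5.36 ± 2.84 (SD, n = 4), a log2 difference of -2.29 with an adjusted p of 0.111 by limma. ApcMin/+ replicate 4 had 1.27, below the other 4 controls (19.0 to 81.7). The call depended on the fit, Cybb being lower at an adjusted p of 0.0293 by edgeR, 0.00132 by DESeq2 and 0.00220 by limma without ApcMin/+ replicate 4. Of 5 lymphocyte markers tested, 4 also had log2 differences below 0 and 1 above. Among them, Cd79a (log2 difference -2.19, adjusted p = 0.193 by limma) had 1.27 in ApcMin/+ replicate 4 and 27.9 to 155 in the other 4 controls. Which cells carried the Cybb transcripts was not tested. Phagocyte markers gave 0 of 7 tested higher and 1 lower by limma, the lysozyme gene Lyz2 (78.8 ± 23.5 against 26.1 ± 9.77, SD, n = 5 and 4, log2 difference -1.56, adjusted p = 0.00745 by limma). The macrophage marker Adgre1 was at 0 in all 4 ApcMin/+; p16cis/cis mice, but at only 1.90 to 6.70 in the ApcMin/+ mice. It rested on at most 6 reads per mouse and was too low to be tested. Csf1r was also lower without passing (log2 difference -1.04, adjusted p = 0.104 by limma). Other phagocyte markers had the opposite sign without passing, Cd68 with a log2 difference of 0.85 (adjusted p = 0.0903 by limma) and Cd14 with 0.38 (adjusted p = 0.129 by limma). Of the 7 tested, 4 log2 differences lay below 0 and 3 above, and the median of the list was -0.02. DESeq2 called 1 phagocyte marker higher and 1 lower among 9, with a median of -1.03. Without a filter, limma called 0 higher and 2 lower among the same 9, with a median of -0.70. These 9 include the low genes that the filter left out, Adgre1 among them. The summed level of the phagocyte list was 2039 to 2941 in ApcMin/+ mice and 2005 to 3306 in ApcMin/+; p16cis/cis mice. Most of this sum came from Cd14 (means of 1104 and 1400) and Ly6g (means of 669 and 930), so it says little about the other markers of the list. Which cells carried the Cd14 and Ly6g transcripts was not tested.

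The genes around Nos2 and Arg2 in arginine and polyamine metabolism had 2 of 23 tested higher, 3 lower and a median log2 difference of -0.14. Among all genes tested, 8.14% rose and 8.75% fell by the limma rule, so these counts are near the background. The same shares stand beside the limma counts of every other list. Those that rose were Gatm, which uses arginine to make guanidinoacetate for creatine (321 ± 34.3 to 572 ± 50.0, SD, n = 5 and 4, log2 difference 0.83, adjusted p = 0.00252 by limma), and Ass1, which regenerates arginine from citrulline (log2 difference 0.49, adjusted p = 0.0331 by limma). Oat, the ornithine aminotransferase downstream of arginase, fell from 4082 ± 478 to 2579.7 ± 181 (SD, n = 5 and 4, log2 difference -0.66, adjusted p = 0.00400 by limma). Azin1, an antizyme inhibitor that spares ornithine decarboxylase, fell as well (3003 ± 487 to 1635 ± 367, SD, n = 5 and 4, log2 difference -0.89, adjusted p = 0.00656 by limma), as did the polyamine acetyltransferase gene Sat1 (log2 difference -0.47, adjusted p = 0.0397 by limma). The calls of Gatm, Oat and Azin1 held with every mouse left out in turn and after the GC and length correction, which reduced Azin1 to -0.56 (adjusted p = 0.0416 by limma), whereas Ass1 held in 1 and Sat1 in 3 of 9 such omissions and neither passed the correction. Genes of tetrahydrobiopterin, the cofactor of nitric oxide synthase, gave 0 calls among 7 tested by limma, edgeR or DESeq2 and 0 at an unadjusted p under 0.05, with a median of 0.06; the most abundant, Spr, had a log2 difference of 0.14 (adjusted p = 0.599 by limma).

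Among genes that remove superoxide and peroxide, 3 of 20 tested rose and 2 fell by limma, beside 8.14% and 8.75% of all genes tested. The median log2 difference of the list was 0.06. Gpx2, the glutathione peroxidase of the gut epithelium, rose from 7078 ± 1431 to 14476 ± 3127 (SD, n = 5 and 4, log2 difference 1.03, adjusted p = 0.00571 by limma). Gpx1, the ubiquitous form, rose from 4404 ± 1256 to 7931 ± 593 (SD, n = 5 and 4, log2 difference 0.89, adjusted p = 0.00907 by limma). The cytosolic peroxiredoxin Prdx2 rose by less (log2 difference 0.37, adjusted p = 0.0296 by limma). Catalase (Cat) and the mitochondrial superoxide dismutase gene Sod2 fell, with log2 differences of -0.55 and -0.34 and adjusted p-values of 0.0295 and 0.0280 by limma. Neither fall passed with sex as a covariate (2 genes of the list higher, 0 lower) or in females only (3 higher, 0 lower). Both glutathione peroxidase calls held with every mouse left out in turn and after the GC and length correction, at 1.08 for Gpx2 and 0.55 for Gpx1. After that correction Prdx2 (0.30) and Cat (-0.52) also passed and Sod2 (-0.07) did not, while with single mice left out Prdx2 passed in 2, Cat in 6 and Sod2 in 4 of 9 cases.

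The oxidases draw on NADPH, and of 7 NADPH supply genes tested, 0 rose and 1 fell: Idh1, the cytosolic isocitrate dehydrogenase (4718 ± 347 to 3574 ± 346, SD, n = 5 and 4, log2 difference -0.40, adjusted p = 0.0211 by limma), a call that held in 5 of 9 omissions of a mouse and not after the GC and length correction (-0.25, adjusted p = 0.0803). After that correction, 2 genes of the list other than Idh1 were lower by limma and 0 were higher. Genes that read out interferon gamma, an inducer of Nos2, gave 0 calls among 12 tested by limma, edgeR or DESeq2, with 1 higher and 1 lower at an unadjusted p under 0.05 by limma. Their median was 0.36, but it moved to -0.11 without ApcMin/+; p16cis/cis replicate 3, to 0.70 without replicate 4 of that group and to 0.02 without ApcMin/+ replicate 4, an omission that also gave 1 call. The list had summed levels of 2418 to 5444 in ApcMin/+ mice and 3421 to 7925 in ApcMin/+; p16cis/cis mice. The most abundant, Irf1, had 1938 ± 399 (SD, n = 5) against 1910 ± 271 (SD, n = 4), a log2 difference of -0.00 whose sign changed with single mice left out. Of 10 genes that read out IL-17, IL-22 and NF-kappaB, which control Duox2 and Duoxa2, 1 rose, Zc3h12a (log2 difference 0.64, adjusted p = 0.0493 by limma), and 0 fell, with a median of -0.21 by limma and of 0.08 by edgeR. The Zc3h12a call held in 2 of 9 omissions of a mouse.

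**Figure D5:**
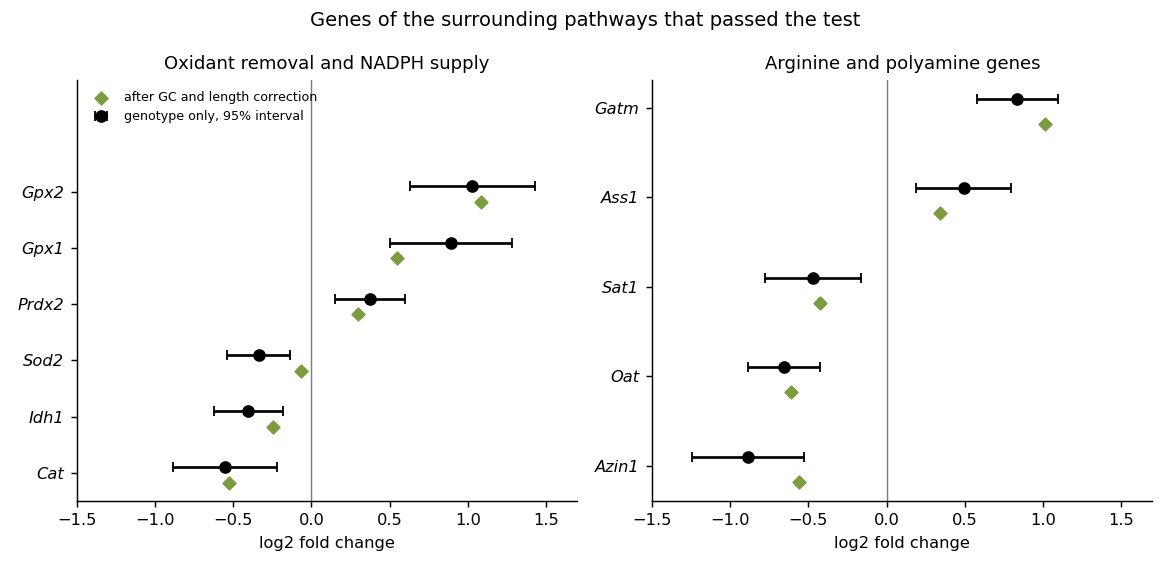
Log2 fold change (ApcMin/+; p16cis/cis over ApcMin/+) of the genes that passed in the oxidant removal and NADPH supply lists (left) and in the arginine and polyamine list (right); black points are estimates with 95% intervals and green diamonds the estimates after the GC and length correction. Gpx2 (1.03) and Gatm (0.83) keep their size after the correction (1.08 and 1.01), whereas Sod2 goes from -0.34 to -0.07.

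Markers of crypt position and of other cell types are given beside these results. The list of crypt base and cycling cell markers had 1 of 7 tested genes higher, the proliferation gene Mki67 (log2 difference 0.92, adjusted p = 0.00656 by limma), and the other log2 differences were above 0 without passing. Its summed level was 5409 to 9016 in ApcMin/+ mice and 9067 to 11899 in ApcMin/+; p16cis/cis mice, and without Mki67 these ranges overlapped, at 3258 to 5944 and 5009.8 to 6677. The list of surface colonocyte markers had 1 of 6 lower, the chloride exchanger gene Slc26a3 (log2 difference -1.23, adjusted p = 0.00848 by limma), with summed levels of 50108 to 104841 against 33349 to 64812. All 6 log2 differences of the surface list were below 0, with a median of -0.43. In females only, limma called 0 genes of either list, and the medians were 0.14 for crypt and -0.03 for surface markers. With sex as a covariate, 1 crypt marker was higher and 1 surface marker lower by limma, with list medians of 0.28 and -0.55. The calls of Mki67 and Slc26a3 with all mice are near the shares of all genes that passed.

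Goblet cell markers gave 1 of 6 higher, Spink4 (log2 difference 1.41, adjusted p = 0.0139 by limma), which missed the threshold after the GC and length correction (0.81, adjusted p = 0.0840 by limma). Zg16, a goblet cell gene with the opposite sign (log2 difference -0.89, adjusted p = 0.0775 by limma), was not called by limma, while edgeR and DESeq2 each called 1 goblet gene lower. Markers of the distal colon gave 1 of 5 higher, Hoxd10 (log2 difference 1.35, adjusted p = 0.0341 by limma), with summed levels of 5641 to 10211 against 8483 to 11527. All 5 log2 differences of this list were above 0, with a median of 0.76, and 3 had an unadjusted p under 0.05 by limma. In females only, limma called 0 of the 5 and the median was 0.08. With sex as a covariate it also called 0, with a median of 0.65. The Hoxd10 call held in 3 of 9 omissions of a mouse, edgeR called 0 of the 5, and 4 were higher without ApcMin/+ replicate 1. Lymphocyte markers gave 1 of 5 lower, Jchain (log2 difference -2.65, adjusted p = 0.0175 by limma), with a list median of -1.98. Stromal markers gave 1 of 7 lower, Col3a1 (log2 difference -2.92, adjusted p = 0.0414 by limma), with a list median of -1.47 and a call that held in 3 of 9 omissions. Without ApcMin/+ replicate 4, 4 of the 5 lymphocyte and 4 of the 7 stromal markers were lower by limma. With this mouse left out, 1794 of all genes tested were lower, against 1261 with all mice. DESeq2 with all mice called 3 of 6 lymphocyte and 2 of 7 stromal markers lower. The part of these differences in the values of Cyba, Nox1, Arg2 and Gpx2 was not tested.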

How the data were processed

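Normal-appearing colonic mucosa of 9 mice was profiled by RNA-seq, 1 library per mouse. According to the authors' methods, rRNA-depleted, oligo dT-selected libraries were sequenced on the BGISEQ-500 platform, aligned with BOWTIE2, quantified with RSEM and compared with DESeq2. Genome build, annotation and tool versions of that step, and whether reads were counted by strand, are not given in the sources used here. The deposited signal values are gene counts that the authors had scaled by size factors, 1 for each mouse, here called normalized counts. Dividing by the step of each column returned whole reads for 100% of positive values (tolerance 0.01 reads), 13523500 to 17885918 per mouse. Because the values are normalized, limma 3.58.1 with trended variances was run on log2(value + 1) in R 4.3.3, on all 9 mice with genotype as the only term, for 14410 genes with at least 10 in at least 4 mice, with Benjamini-Hochberg adjustment and a threshold of 0.05. The step was tested on simulated data. Single genes were also given an exact two-sided permutation test of the 9 mice, which cannot go below 0.0159. edgeR 4.0.16 and DESeq2 1.42.0 took the recovered reads as alternatives, beside other scalings, filters, pseudocounts, covariates, omissions of single mice, a block on replicate number and a GC and length correction. Each library is a separate mouse by its label, so errors cover differences between mice as well as technical spread. Gene positions, exon lengths and overlaps are from GENCODE M21 (GRCm38), matched on identifiers without version, since Duox2 and Noxo1 differ from it in version. Promoter sequences are from RefSeq (GRCm38.p6), where 6 of the 8 members matched. Named are all members, the genes of each pathway list that passed the test (the most abundant gene where none did), the 5 genes most like Nos2 and markers needed to describe a cell type list. Cybb, Csf1r, Cd68, Cd14, Ly6g, Cd79a, Epcam, Krt18 and Zg16 were added after their values were seen, as were the genes sharing exons with a member. The members and lists were chosen with earlier results of these data known.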

Additional observations from a re-analysis of the deposited data

Results flagged for a closer look

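A single mouse stood far from the others of its genotype for 5 of the 60 gene and genotype groups checked, where chance would give about 3, since about 1 in 20 groups is picked out by chance. The only member among them was Noxo1, at 137 normalized counts in ApcMin/+ replicate 4 against 76.1 to 87.8 in the other 4 ApcMin/+ mice. That mouse also had the lowest Nox1, Nos2 and Duox2 and the highest Arg2 and Cyba of its genotype. Sod2 was 1769.6 in ApcMin/+ replicate 5 against 2061 to 2155, and Zc3h12a was 1634 in ApcMin/+ replicate 1 against 870.0 to 1084. In the ApcMin/+; p16cis/cis group, Prdx2 was 3340.0 in replicate 1 against 3840 to 3887, and Lyz2 was 40.6 in replicate 3 against 19.1 to 22.7.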

How the results depend on the processing

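Cyba passed in 10 of 13 alternatives to the genotype-only limma fit and in 9 of 9 omissions of a mouse. It did not pass with the mitochondrial share as a covariate (log2 difference 0.61), after the GC and length correction chosen after seeing the data (0.31), or under Bonferroni adjustment (0.81, adjusted p = 1). The number of members higher was accordingly 0 in these 3 settings and 0 with a fold change over 2. Arg2 passed when at least 10 was required in every mouse (-1.53, adjusted p = 0.0471 by limma), which gave 1 member lower. With 1 mouse left out, the number of members lower was 0 to 1 and the Arg2 log2 difference ran from -1.95 to -1.09. Duox2 changed sign with sex (-0.081) or mitochondrial share (-0.28) as a covariate and between -0.087 and 0.30 with single mice left out, Duoxa2 between -0.32 and 0.083 with single mice left out, and Noxo1 (-0.020) and Noxa1 (-0.072) after the GC and length correction. Over all genes, 1173 rose and 1261 fell; these counts were 676 and 761 with sex as a covariate, 519 and 379 in females only, 0 and 0 with the mitochondrial share, 5 and 22 under Bonferroni adjustment, and 264 and 237 with a fold change over 2. Leaving out single mice gave 528 to 1694 higher and 649 to 1794 lower. Among the other genes named, Rac1 (0.12) and Spink4 (-0.045) changed sign with the mitochondrial share, and Irf1 lay between -0.15 and 0.066 with single mice left out. Per kb of the longest transcript, Noxo1 was at 41.9 and Cyba at 2833, with the order of the members as given. The cause of these changes was not tested.

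Replicate numbers are shared between the genotypes but belong to different mice, and same-numbered mice did not deviate together (correlations of -0.18, 0.07, 0.05 and 0.14 for numbers 1 to 4). With the replicate block, 2 members were higher, since Nox1 passed (log2 difference 1.00, adjusted p = 0.0377 by limma), and Irf1 was at 0.012. Nos2, Arg2 and Noxo1 rest on 21 to 361 reads per mouse, and the spread between mice was not split into counting error and other sources.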
